A study of Mus musculus with 18 samples.

Results

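*Noct* was described here as a single locus, the only one of 52179 loci with a gene symbol in the deposited tables whose symbols hold *Noct*. The tables list 168136 loci in all. The locus was chosen by its reads in 1 nuclear library, so its high count and rank are given as a description. The tests below compare libraries that did not enter the choice. In the comparisons between whole cell groups, that nuclear library still entered the model's estimate of spread. The RNA came from Neuro2A (N2A) cells, a mouse neuroblastoma line described in the labels as wild type. Cells were transfected with biotinylated *miR-92b* at 25 nM, with a biotinylated scrambled sequence (Scr) at 25 nM, or were left untransfected (control), and RNA held on streptavidin beads was collected from nuclear or whole cell lysates. This gave 6 groups of 3 libraries: nuclear control, nuclear Scr, nuclear *miR-92b*, whole cell control, whole cell Scr and whole cell *miR-92b*. All 6 groups come from 1 cell line, the mimics were introduced from outside the cell, and each library was made from RNA selected with oligo-dT beads.

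*Noct* encodes nocturnin, an enzyme first described as a circadian deadenylase and now known to remove the 2′-phosphate from NADP(H). It belongs to the endonuclease, exonuclease and phosphatase family, together with the deadenylases CNOT6 and CNOT6L. Its mRNA is rhythmic in many tissues and the enzyme has been studied most in liver, fat and retina. A pulldown with a biotinylated miRNA is meant to enrich RNAs that pair with the miRNA over RNAs collected with a scrambled sequence.

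The gene lies on the plus strand of mouse chromosome 3 (GRCm38, chr3:51224447-51251644, GENCODE M21). The deposited tables give the locus a wider region that ends at base 51340663 and that is also listed for *Elf2* and 4 other symbols, each with its own values. GENCODE M21 has 4 *Noct* transcripts. Noct-201 has 3059 bases in 3 exons, with a first exon of 841 bases, an intron, exon 2 at chr3:51247805-51248074 and exon 3 at chr3:51249697-51251644. Noct-203 has 2992 bases and the same 1287 bases of coding sequence as Noct-201. Noct-202 has 9797 bases, because its first exon of 7869 bases (chr3:51240206-51248074) takes in the 3′ part of what is intron 1 in Noct-201. In Noct-202 the coding sequence of 1095 bases starts only after 7607 bases of 5′ UTR. Noct-204 is a fragment of 805 bases.

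The mature *miR-92b* strand and 2 short stretches of *Noct* are shown because they carry the results on pairing and on shared sequence. The *miR-92b* sequence is from RefSeq (GRCm38, chr3:89227126-89227147, minus strand), with the seed, bases 2 to 8, in capitals. The first *Noct* stretch lies in the long 5′ UTR of Noct-202, with the 6 bases that pair with seed bases 2 to 7 in capitals. The last runs across the junction of exons 2 and 3 of Noct-201, with the first 15 bases of exon 3 in capitals.
mmu-miR-92b-3p: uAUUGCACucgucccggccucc
Noct-202 (chr3:51244610-51244639): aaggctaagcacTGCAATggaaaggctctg
Noct-201 (chr3:51248060-51248074 and chr3:51249697-51249711): acatcctcgcccaagCTCTCGGAGAAGGCA

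None of the 4 *Noct* transcripts holds GTGCAAT, the match to the whole *miR-92b* seed, or TGCAATA, the other match of 7 bases. For comparison, 20.6% of 21877 genes with a protein-coding transcript hold one of these matches in such a transcript. The shorter match TGCAAT occurs only in Noct-202, where it is found 2 times, and the occurrence printed above lies at positions 4417 to 4422 of the transcript. The match is found in 41.8% of the same genes. The transcripts were searched whole on their own strand, and TGCAAT lies within both longer matches. The printed occurrence falls in sequence that *Noct* shares with other genes. Searched on both strands, the 30 bases printed for it are found unchanged in transcripts of 5 other genes, so not all of these need hold TGCAAT there. The 30 bases across the junction of exons 2 and 3 are found in transcripts of 0 other genes.

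In the nuclear libraries the *Noct* locus had the second highest count of all loci with a symbol, and in 1 library the highest. Normalized counts, for which the fragments of a locus are scaled by a size factor of its library, were 53702.7, 65616.4 and 80064.2 in the 3 nuclear control libraries. They were 54126.3, 84844.8 and 77970.1 in nuclear Scr, where the 84844.8 belongs to the library labelled number 2, the one that chose the locus. They were 59801.4, 68453.1 and 73394.2 in nuclear *miR-92b*. The lowest library of each nuclear group was the one labelled number 1, at 53702.7 to 59801.4, and the 6 others ran from 65616.4 to 84844.8, so the 3 nuclear groups overlapped.

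Whole cell libraries were lower and closer together. Whole cell control gave 51387.5, 48549.4 and 55146.1. Whole cell Scr gave 52584.9, 52718.0 and 56339.6, and whole cell *miR-92b* gave 46068.7, 55456.4 and 49430.7. The 3 whole cell groups also overlapped, and 7 of the 9 nuclear libraries lay above the highest whole cell library. Of the 15 pairs of groups, 12 overlapped. The 3 that did not were nuclear *miR-92b* with each of the whole cell groups. How many of all loci separate in this way was not counted, so this is not read as a trait of *Noct*. Over all loci the median log2 ratio of nuclear over whole cell libraries was also highest in *miR-92b*, at 0.26, beside 0.06 in control and 0.05 in Scr.

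**Figure D1:**
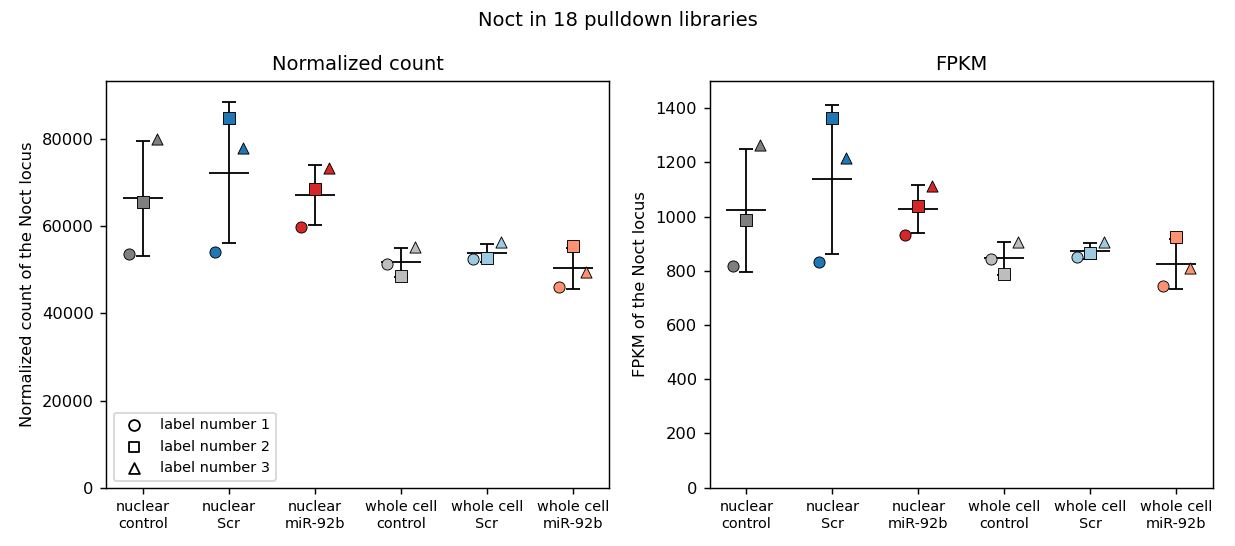
Normalized count (left) and FPKM (right) of *Noct* in each of 18 libraries, with symbols for the library number in the labels, a line at the mean of each group of 3 and bars of 1 SD. Nuclear libraries reached from 53702.7 to 84844.8 normalized counts and whole cell libraries from 46068.7 to 56339.6, and the circle is the lowest point of each nuclear group.

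By group mean the order was nuclear Scr (72313.7 ± 16121.5, SD, n = 3), nuclear *miR-92b* (67216.2 ± 6880.29), nuclear control (66461.1 ± 13201.0), whole cell Scr (53880.8 ± 2130.39), whole cell control (51694.3 ± 3309.04) and whole cell *miR-92b* (50318.6 ± 4756.42). Each neighbouring pair in this order overlapped between its libraries. The pooled SD within groups was 0.27 on the log2 scale in nuclear libraries and 0.10 in whole cell libraries. Among 201 loci with a mean of at least 1/20 of that of *Noct*, 154 had a lower SD than *Noct* in the nuclear groups and 9 had a lower SD in the whole cell groups.

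As a share of the reads on loci with a symbol, *Noct* took between 0.946% (95% exact Clopper-Pearson interval 0.936% to 0.956%) and 1.43% (1.42% to 1.44%) in nuclear libraries. In whole cell libraries it took between 0.734% (0.729% to 0.739%) and 0.948% (0.939% to 0.957%). These intervals cover counting error only, since the reads carry no molecular identifiers, and they are far narrower than the spread between libraries of 1 group. From 35527 to 215123 reads lay on *Noct* in a library, out of 3752991 to 22920038 on loci with a symbol.

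In 8 nuclear libraries the locus with more reads was *Malat1*, a nuclear long non-coding RNA. In the Scr library labelled number 2, *Noct* stood first with 84844.8 against 84334.9 for *Malat1*, a ratio of 1.01. The locus at rank 3 in each of the 9 nuclear libraries was *Gm42860*, at 34316.8 to 57581.0. In whole cell libraries *Noct* had rank 2 in 1 library, rank 3 in 4 and rank 4 in 4, behind loci that include the mitochondrial transcripts, *Malat1*, *Acaca* and *Eef1a1*. Rank by count favours long transcripts. By FPKM, which divides by transcript length, *Noct* ran from 816 to 1363 in nuclear and from 743 to 924 in whole cell libraries. Its rank among loci with a symbol was then 13 to 52 in nuclear and 41 to 104 in whole cell libraries. Among all 168136 loci, those without a symbol included, it was 116 to 3465 in nuclear and 814 to 1963 in whole cell libraries. FPKM moved with the count, and the highest library was 1.84 times the lowest by count and 1.83 times by FPKM.

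The pulldown with *miR-92b* was compared with Scr and with control to ask whether *Noct* RNA was collected with the miRNA. Counts of *Noct* with *miR-92b* and with Scr could not be told apart in either compartment. In whole cell libraries, where all 18 libraries entered the model, *Noct* had a log2 ratio of *miR-92b* over Scr of -0.10 (95% interval -0.63 to 0.43, limma adjusted p = 0.934). Against control the log2 ratio of *miR-92b* was -0.04 (-0.57 to 0.49, limma adjusted p = 1), and that of Scr over control was 0.06 (-0.47 to 0.59, limma adjusted p = 0.996). These 3 comparisons share their groups with one another. The share of the 15579 loci tested that passed an adjusted p of 0.05 was 0.00642% for *miR-92b* over Scr, 0.00642% for *miR-92b* over control and 0% for Scr over control (limma), where 793 loci had an unadjusted p under 0.05, edgeR called 0 and DESeq2 called 37.

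In nuclear libraries the model left out the Scr library that chose the locus. The log2 ratio of nuclear *miR-92b* over the 2 other Scr libraries was 0.04 (-0.57 to 0.66, limma adjusted p = 0.999). With that library included it was -0.08, given with no test. Nuclear *miR-92b* over control gave 0.03 (-0.52 to 0.58, limma adjusted p = 1), and nuclear Scr over control gave -0.01 (-0.63 to 0.60, limma adjusted p = 1). Of 15570 loci tested in nuclear libraries, 0% passed in each of these comparisons (limma), although 510, 60 and 731 loci had an unadjusted p under 0.05 for *miR-92b* over Scr, *miR-92b* over control and Scr over control. edgeR and DESeq2 on the recovered reads also called 0 loci in each of these 3. As a fold, the interval of *miR-92b* over Scr ran from 0.646 to 1.34 in whole cell and from 0.673 to 1.58 in nuclear libraries. Changes of that size are not excluded, and the width of the interval depended on the model. With the compared groups alone, the log2 interval was -1.204 to 0.9996 in whole cell and -0.363 to 0.451 in nuclear libraries. Without the whole cell *miR-92b* library number 3, the whole cell log2 interval was -0.476 to 0.293. The effect of *miR-92b* over Scr did not differ detectably between the compartments, with a difference of 0.15 on the log2 scale (-0.68 to 0.97, limma adjusted p = 0.954). The labels do not say that the 3 libraries of a group came from separate cultures, so these p-values measure only the spread between the libraries, which may be technical.

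**Figure D2:**
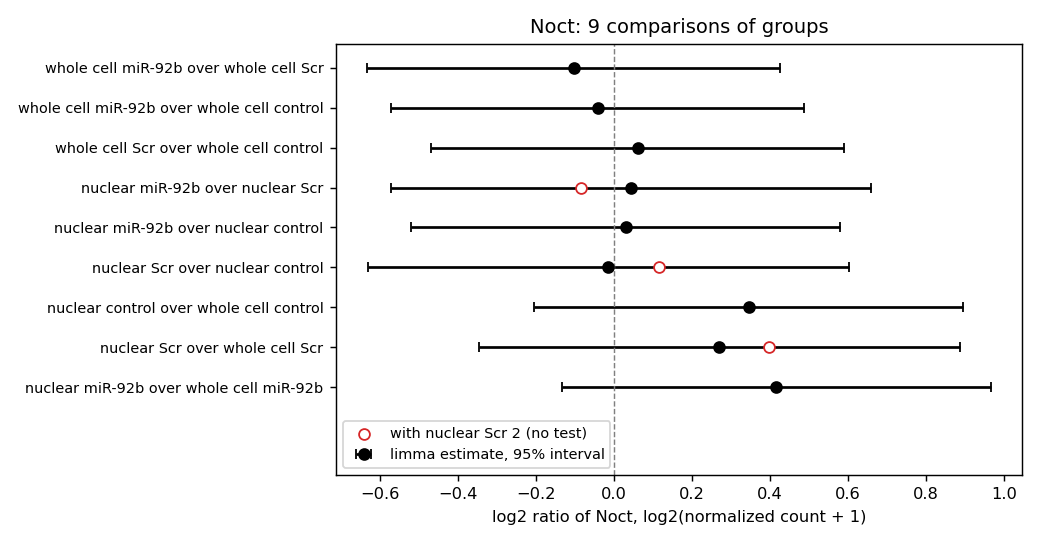
Log2 ratio of *Noct* in 9 comparisons of groups, with the limma estimate (filled) and its 95% interval, and the ratio with the nuclear Scr library number 2 included (open, no test). All 9 intervals shown include 0, and the 3 ratios of nuclear over whole cell libraries lie to the right, at 0.27 to 0.42.

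Nuclear and whole cell lysates were next compared within each treatment. Nuclear *Noct* counts were 1.27 times those of whole cell libraries in control (log2 ratio 0.35, -0.21 to 0.90, limma adjusted p = 0.470). They were 1.21 times in Scr without the library that chose the locus (0.27, -0.34 to 0.89, limma adjusted p = 0.669) and 1.33 times in *miR-92b* (0.42, -0.13 to 0.97, limma adjusted p = 0.301). None of the 3 passed the threshold. The ratio in Scr was 0.01 without Scr number 3 and 0.53 without Scr number 1 of the nuclear libraries. In control it was 0.20 without nuclear control number 3, 0.49 without number 1 and 0.69 with quantile normalization. Among all loci tested, 3.06% were higher and 7.6% lower in nuclear control, 0.572% higher and 2.65% lower in nuclear Scr, and 7.28% higher and 7.43% lower in nuclear *miR-92b* libraries.

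Averaged over the 3 treatments, a comparison added after the data were seen, the ratio of nuclear over whole cell *Noct* was 1.27-fold (log2 0.34, 95% interval 0.01 to 0.67, limma adjusted p = 0.105). A two-sided exact permutation of the compartment labels within treatments, over 4000 arrangements of the same 17 libraries, gave p = 0.0015 for this single value. It takes the libraries of a treatment as independent, which the labels do not state. It also covers only a locus that was chosen by its nuclear reads, with no adjustment for other loci. The shift is not particular to *Noct*: 6461 of the 15570 loci had a larger log2 ratio of nuclear over whole cell libraries. The median log2 ratio over all loci was 0.06 in control, 0.05 in Scr and 0.26 in *miR-92b*. In a bulk library the share of cells or nuclei that hold an RNA and the amount per cell cannot be told apart.

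The ratio of *Noct* lay between those of the nuclear RNAs *Malat1* and *Neat1* and those of 3 cytoplasmic mRNAs, which were listed to check the fractions. *Malat1* was higher in nuclear libraries by 1.14 on the log2 scale in control (SE 0.29, limma adjusted p = 0.0142) and by 1.37 in *miR-92b* (SE 0.29, limma adjusted p = 0.00339), and its value in Scr was 0.72 (limma adjusted p = 0.233). *Neat1*, the RNA scaffold of paraspeckles, gave 1.09, 0.77 and 1.31, and passed in control and *miR-92b*. *Meg3*, listed with them, gave -1.08, 2.13 and 3.80 with SEs of 1.5, 1.68 and 1.5 and did not pass (limma adjusted p = 0.723, 0.520 and 0.0929), at a mean of 46.2 normalized counts, and *Miat* was below the filter. The cytoplasmic mRNAs of *Actb*, *Gapdh* and *Eef1a1* were lower in nuclear libraries in all 3 treatments (9 of 9 values past the threshold), with log2 ratios from -4.18 to -1.47. On the same scale *Noct* stood at 0.27 to 0.42, above 0 and below *Malat1* and *Neat1*.

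**Figure D3:**
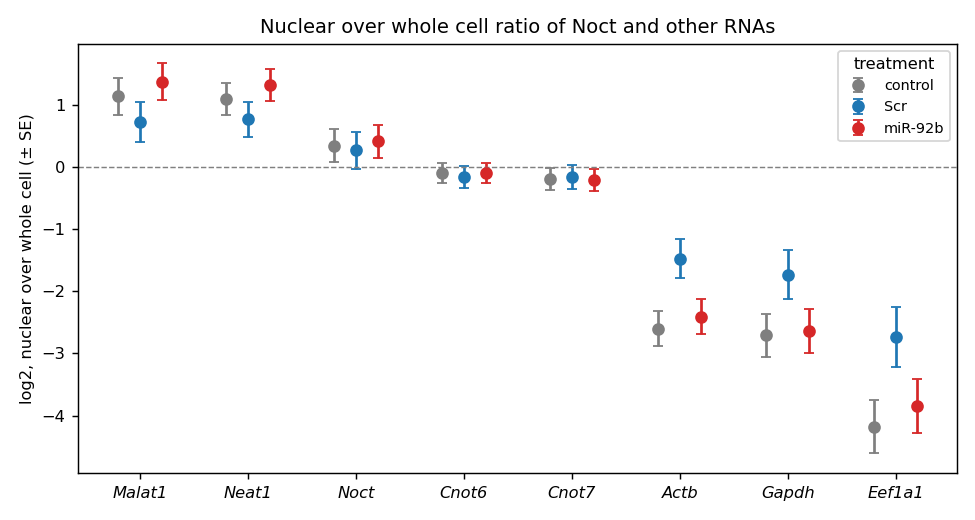
Log2 ratio of nuclear over whole cell libraries for 8 RNAs in control, Scr and *miR-92b*, with bars of 1 SE from limma and without the nuclear Scr library number 2. *Noct* lies at 0.27 to 0.42, below *Malat1* and *Neat1* at 0.72 to 1.37 and above the 3 cytoplasmic mRNAs, all under -1.

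Noct-202 shares much of its sequence with transcripts of other genes, and the loci of the closest of those genes were correlated with *Noct* across the nuclear libraries. Every stretch of 50 bases of each *Noct* transcript was searched, on both strands, in the transcripts of all other genes of GENCODE M21, an analysis added after the data were seen. None of the 3010 stretches of Noct-201 and none of the 2943 of Noct-203 were found elsewhere. In Noct-202, 3728 of 9748 stretches (38.2%) were found in transcripts of other genes, 147 genes in all. Of the stretches that start in the first 5048 bases, 73.5% were shared, with up to 38 genes at 1 position. Of those that start further on, 0.362% were shared, and no shared stretch started in the coding sequence.

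The one with the highest count is *Gm42860*, a transcript of the annotation class TEC on chromosome 5 (chr5:60803716-60807706), which aligned to Noct-202 over 3984 bases at 97.6% identity on the same strand. *Gm29084*, an antisense transcript on chromosome 1, aligned over 1452 bases at 99.7% on the same strand. Transcripts of 4 of the genes aligned on the opposite strand. Those were *Slc38a6*, a member of the SLC38 amino acid transporter family, over 3243 bases at 98.5%, *D10Wsu102e* over 3497 bases at 95.5%, *Olfr784*, an olfactory receptor gene, over 1239 bases at 96.0%, and *Rab3gap1*, the catalytic subunit of the RAB3 GTPase-activating complex, over 1337 bases at 96.8%. In all, 12 genes aligned over at least 500 bases at 95% identity or more, and 11 loci with their symbols are in the tables.

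**Figure D4:**
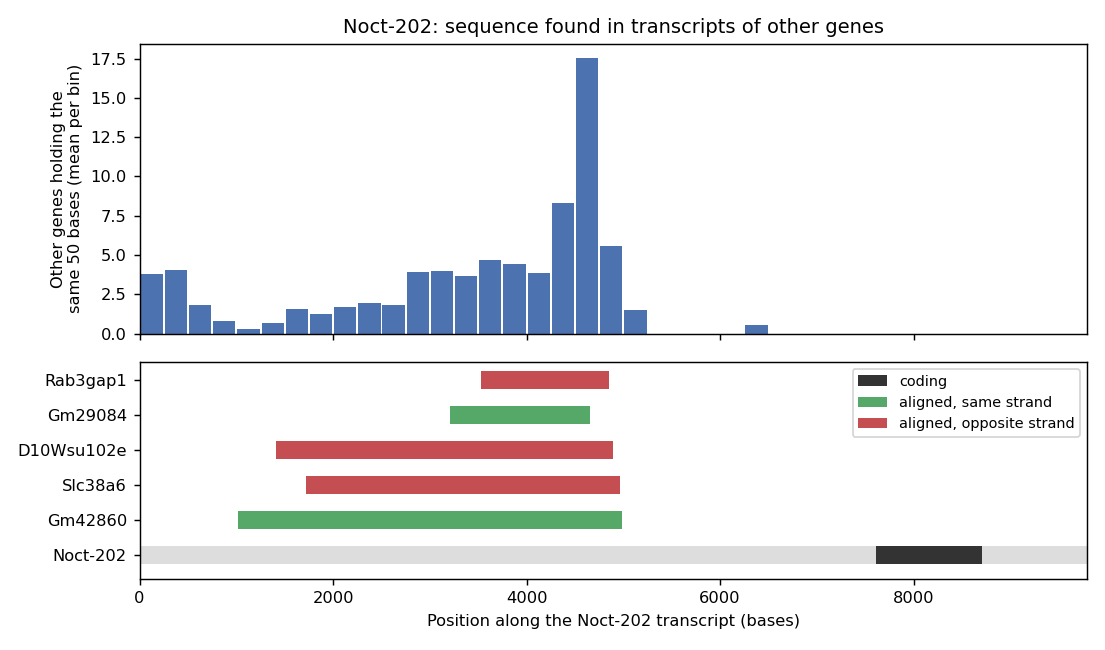
Upper panel: mean number of other genes whose transcripts hold the same 50 bases, in bins of 250 bases along Noct-202, whose start is at 0. Lower panel: Noct-202 with its coding sequence in black, and the longest aligned stretch of 5 other genes. The shared stretches start in the first 5048 bases, apart from 1 bin further on, and the coding sequence has none.

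The count and FPKM of *Noct* also bear on which transcript the reads were assigned to. The ratio of count to FPKM, scaled in each library to 862 to 2102 loci of genes with a single annotated transcript, gives the length by which the authors' software divided. For *Noct* this implied length was 8188 to 8813 bases in nuclear libraries and 7962 to 8756 bases in whole cell libraries. It lay closer to the 9797 bases of Noct-202 than to the 3059 of Noct-201 in all 18 libraries. The reference loci themselves were spread, with quartiles of their own ratio between 0.768 and 1.35 times the annotated length, so the value is approximate. Reads from near-identical copies may have been split between loci in the counting, and none of the sources used here gives the strand setting of that counting. The part of the *Noct* count that comes from other copies is therefore uncertain and was not tested.

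The loci most like *Noct* across libraries were found by Pearson's r of log2(normalized count + 1), given as a description with no test, since libraries share compartment, treatment and depth. Over 18 libraries these were *Slc38a6* (r = 0.932), *Gm42860* (0.930), the locus of *Snhg15* and *Snora9* (0.927), *Rab3gap1* (0.916) and *Crebrf* (0.897). *Slc38a6*, *Gm42860* and *Rab3gap1* share sequence with Noct-202. *Snhg15*, a host gene of a snoRNA, and *Crebrf*, a regulator of the CREB3 transcription factor, had no alignment to it. Without the 2 libraries in which *Noct* was farthest from its median, nuclear Scr number 2 and nuclear control number 3, r was 0.881, 0.878, 0.907, 0.861 and 0.850 for the 5 loci in the same order.

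Within the 9 nuclear libraries alone, the 3 loci with the highest r were *Slc38a6* (0.979), *Gm42860* (0.977) and *Gm29084* (0.970), all with shared sequence. Within the 9 whole cell libraries these gave 0.647, 0.898 and 0.530. Over the 11 loci that share sequence, the median r with *Noct* was 0.736 over 18 libraries and 0.918 over the nuclear libraries, beside -0.01 and -0.15 for all loci. Over the whole cell libraries the median was 0.490, from -0.40 for *Olfr784* to 0.90 for *Gm42860*, beside -0.00368 for all loci. All 11 had r above 0.5 over 18 libraries, as did 12.3% of all other loci tested. The 11 ranged in mean from 131 to 41486 normalized counts, and 5 of them, *Slc38a6*, *D10Wsu102e*, *Gm29084*, *Rab3gap1* and *Gm29562*, also had their 3 lowest nuclear libraries in those labelled number 1, as did 2.23% of all loci.

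The share of *Noct* in the reads on *Noct* and these loci together varied less than the level of *Noct*. *Gm42860* and *Slc38a6* hold most of the reads on the 11 loci, and the weaker loci varied more, such as *Olfr784*, from 117 to 808 normalized counts. *Noct* made up 35.3% to 37.3% of the reads on *Noct* and the 11 loci together in nuclear libraries (mean 36.3% ± 0.680, SD, n = 9) and 33.4% to 35.6% in whole cell libraries (34.3% ± 0.707, n = 9). The highest of the 18 shares was 1.12 times the lowest. *Noct* is also part of the denominator, so the share varies less than a ratio of *Noct* to the 11 loci would. The ratio of *Noct* to *Gm42860* ran from 1.30 to 1.64 and that to *Slc38a6* from 1.82 to 2.29. Together the 11 loci took 1.69% to 2.50% of the reads on loci with a symbol in nuclear and 1.42% to 1.82% in whole cell libraries, beside the share of *Noct* itself.

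**Figure D5:**
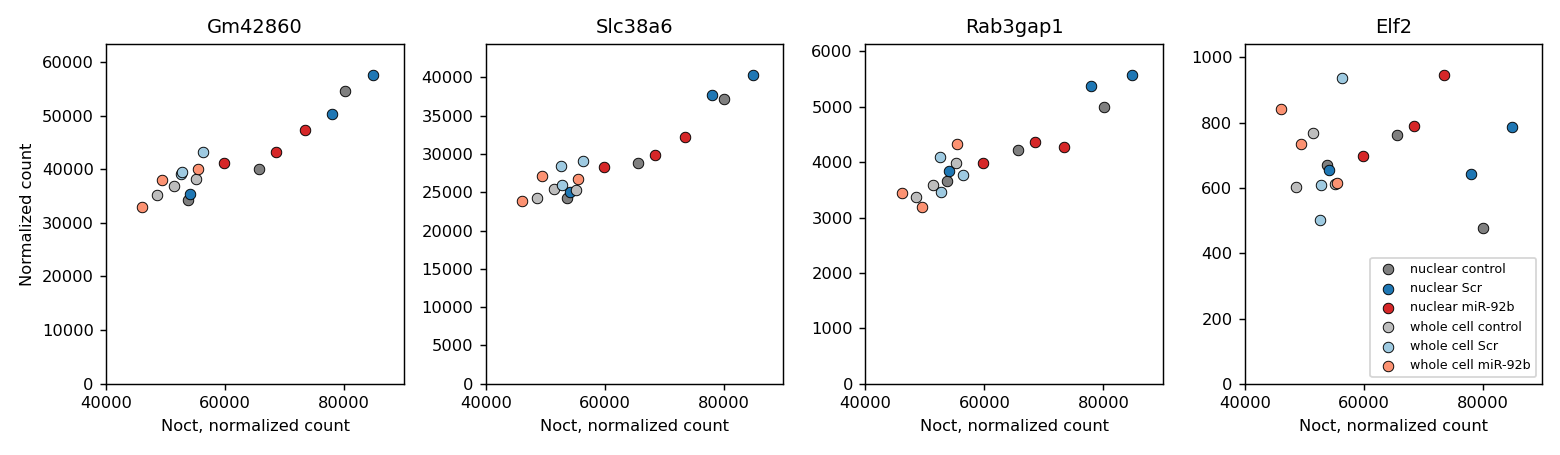
Normalized counts of *Gm42860*, *Slc38a6*, *Rab3gap1* and *Elf2* against those of *Noct* in 18 libraries, coloured by group, with a horizontal axis that does not start at 0. The first 3, which share sequence with Noct-202, rise with *Noct* (r from 0.916 to 0.932), while the neighbouring gene *Elf2* does not.

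The 3 neighbouring loci with the most reads had lower levels than *Noct*. *Elf2*, which encodes an ETS transcription factor and is listed with the same region, had a mean FPKM of 21.5 against 955 for *Noct*. Its r with *Noct* was -0.01 in the nuclear libraries, and the ratio of their counts ran from 54.8 to 168.1. *Naa15*, the auxiliary subunit of the NatA acetyltransferase, had a mean FPKM of 41.7 and an r of 0.21. *Gm38357*, a transcript annotated within intron 1 of *Noct* at chr3:51231917-51234380, had a mean FPKM of 10.4, and its r with *Noct* was 0.26. The FPKM of *Gm37646* averaged 8120, but it comes from 1 library with 9.90 normalized counts and is 0 in the others.

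In the nuclear fraction the reads outside loci with a symbol moved with *Noct*. They made up 9.96% to 10.8% of all reads in the 3 nuclear libraries labelled number 1 and 13.1% to 15.3% in the other 6. Their part in the level of *Noct* was not tested. Depth overlapped between them, since the number 1 libraries had 3754690 to 4254890 reads on loci with a symbol and the other 6 had 3752991 to 16931731. The 3 nuclear groups had such a library each.

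By mean FPKM, a level per length, *Noct* stood above the 10 other deadenylases listed. *Cnot6* and *Cnot6l*, catalytic subunits of the CCR4-NOT complex, had mean FPKM of 62.6 and 33.5, and *Angel2* of 26.0. The mean FPKM of *Noct* was 15.3, 28.5 and 36.8 times theirs, with the long transcript used as its length. Reads from near-identical copies may be part of the *Noct* count, which was not tested. These ratios therefore describe the locus and may not be those of nocturnin mRNA. *Pde12*, a mitochondrial phosphodiesterase, and *Angel1* had mean FPKM of 2.99 and 5.51. Among deadenylases of other families, *Cnot7*, *Pan3* and *Pan2* had mean FPKM of 124, 78.1 and 19.7. Of the 6 relatives, *Noct* included, and of the 5 other deadenylases, 0 passed the threshold in any of the 9 comparisons (limma). Among all loci, 0% to 0.00642% passed in the comparisons of treatments. Between compartments, 3.06% were higher and 7.6% lower in nuclear control, 0.572% and 2.65% in Scr, and 7.28% and 7.43% in *miR-92b*. For lists this short, counts of 0 are near these shares. In control, their median log2 ratios of nuclear over whole cell libraries were 0.13 for the relatives and -0.19 for the other deadenylases, beside 0.06 for all loci.

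NADP(H) is the substrate of nocturnin, and enzymes that make or use it were lower in nuclear libraries where they passed the test. Of 10 tested, 0 were higher in nuclear libraries in any treatment, while 5 were lower in control, 2 in Scr and 6 in *miR-92b*. Among all loci 7.6%, 2.65% and 7.43% were lower, and 3.06%, 0.572% and 7.28% were higher, so that 0 of 10 higher is near the share of all loci. *Nadk*, the cytosolic NAD kinase, was lower in nuclear control libraries (log2 -1.26, SE 0.26, limma adjusted p = 0.00296). *Pgd*, of the pentose phosphate pathway, and *Nadk2*, the mitochondrial NAD kinase, were the next 2 by mean count, and the mean FPKM of the 3 were 19.1, 19.4 and 31.9. *Nadk2* was lower in nuclear *miR-92b* libraries (log2 -0.74, SE 0.24, limma adjusted p = 0.0399). None of the 10 passed between *miR-92b*, Scr and control in either compartment.

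Of 20 clock gene loci tested, 1 was higher and 1 lower in nuclear than in whole cell control, 0 higher and 1 lower in Scr, and 0 higher and 2 lower in *miR-92b*. These counts are near the shares of all loci, of which 7.6%, 2.65% and 7.43% were lower. *Csnk1e*, a kinase that acts on PER proteins, was the gene lower in all 3 (log2 -1.28, -0.79 and -1.12). *Bhlhe40*, a transcriptional repressor, was lower in *miR-92b* (log2 -0.79, SE 0.25, limma adjusted p = 0.0405). The 3 clock loci with the highest mean counts, *Nr1d2*, *Csnk1d* and *Tef*, had mean FPKM of 22.4, 41.8 and 23.9. *Npas2*, *Rora* and *Rorb* were below the filter. Of the clock genes, 0 passed between the treatments.

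Markers of sympathetic neuroblastoma were present, with 9 of 11 tested, among them *Hand2*, *Isl1* and *Stmn2* at mean FPKM of 28.1, 45.3 and 44.0. No locus carried the symbol *Tubb3*. Of 7 markers of other cells, *Gfap* and *Pecam1* passed the filter, at mean FPKM of 0.683 and 1.52, and the defining markers *Ptprc*, *Cd68*, *Aqp4*, *Alb* and *Col1a1* were at a mean of 0.0436 to 4.77 normalized counts.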

How the data were processed

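The group of each of the 18 libraries was taken from its label, which gave 6 groups. Per the submitters' processing notes, reads were trimmed (Trimmomatic 0.30), mapped to mm10 (GRCm38) by TopHat2 and passed to Cufflinks and Cuffdiff. The sources used here do not name the versions of the last 3. The deposited normalized counts, a signal, are the authors' fragments per locus scaled by a size factor of each library. The deposited FPKM values are the authors' fragments scaled by transcript length and by the number of mapped fragments. The authors' tables of comparisons hold fold changes, p-values and q-values and were not used. Of 635205 normalized counts above 0, 99.95% were whole multiples, within 0.02 reads, of the value of 1 read in their library. The rest are limited by the digits printed. The recovered reads gave depth, shares and the count tests. No libraries held identical values, and 0 columns of samples were left unmapped. The 4.51% to 15.3% of reads on loci lacking a symbol did not enter the tests.

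Groups were compared with limma 3.58.1 in R 4.3.3 (variance trend, two-sided, values as log2 of the normalized count plus 1). The 6 groups formed a single model. P-values were adjusted by Benjamini-Hochberg over all loci with a symbol and a mean of at least 10, which were 15579 loci in the fit of 18 libraries. Comparisons with a nuclear group left out the nuclear Scr library labelled number 2, on which the locus was chosen. The design had allowed for raw counts, but the values were normalized, so limma was used. The fit was tested on simulated data for 15579 loci with 200 of them changed by 2 on the log2 scale. It recovered 46.0% for whole cell *miR-92b* over Scr with 6 false calls, and 47.5% for nuclear over whole cell control with 7. Alternatives were edgeR 4.0.16 and DESeq2 1.42.0 on the recovered reads, other pseudocounts, filters and scalings, the FPKM table, sample weights, the compared groups alone, the library number as a block, and each library left out.

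Loci were named by rule. The rule took *Noct*, loci with a symbol within 100 kb, the 5 loci with the highest r over 18 libraries and the 3 over the nuclear libraries, the top 3 loci of each nuclear library, and members of lists of deadenylases, NADP(H) enzymes, clock genes, RNAs of known location and cell markers (the 3 highest in mean). Called list members outside the highest 3, the loci that share sequence with *Noct* and those above it in whole cell libraries were named after their values were seen. The search of 50 bases, the BLAST+ 2.17.0 alignments and the implied length were also added then. *Noct* and the lists were chosen with earlier results of these data known. Some loci and 1 sequence under these rules are not reported here.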

Additional observations from a re-analysis of the deposited data

How the results depend on the processing

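Of 168 alternative values of the 9 comparisons of *Noct*, 155 did not change sign and kept their side of the threshold. Among these are the 3 nuclear comparisons of treatments with quantile normalization, which were 0. *Noct* held the same rank in each nuclear library of that fit, so these values give no direction. The 12 that changed sign belong to 4 comparisons with ratios close to 0. Nuclear Scr over control was 0.00033 with the FPKM table, 0.076 with sample weights and 0.0085 with edgeR, and ran from -0.28 (without nuclear Scr number 3) to 0.25 (without nuclear Scr number 1) when 1 library was left out. Whole cell *miR-92b* over control was 0.074 with quantile normalization and ran from -0.11 to 0.020 with 1 library left out. Nuclear *miR-92b* over Scr ran from -0.22 (without nuclear Scr number 1) to 0.31 (without nuclear Scr number 3), where 1 nuclear Scr library was left and its spread was taken from the other groups, and nuclear *miR-92b* over control ran from -0.11 to 0.17. None of these passed the threshold under any alternative (adjusted p of at least 0.823). Nuclear over whole cell *miR-92b* passed with DESeq2 (log2 0.44, adjusted p = 0.0405), with limma, edgeR and the other alternatives above the threshold up to 0.570, and the cause was not tested. Ranked by FPKM in place of counts, *Noct* stood at rank 1 to 4 in 0 of 18 libraries instead of 18. DESeq2 called 176, 21 and 37 loci in the whole cell comparisons of *miR-92b* over Scr, *miR-92b* over control and Scr over control, where limma called 1, 1 and 0, and 902 against 501 for nuclear over whole cell Scr. With the replicate block, whole cell *miR-92b* over Scr was -0.10 (adjusted p = 0.925) and nuclear over whole cell *miR-92b* 0.42 (adjusted p = 0.265), and the block changed no call on *Noct*. Over all loci tested, correlations of deviations from the group means between libraries of the same number ran from -0.04 to 0.11. They include many loci with low counts, where counting error lowers a correlation. Libraries of different numbers were not correlated for comparison, so these values do not decide whether the number pairs libraries. For *Noct* itself, number 1 lay below the mean of each nuclear group, by -0.29 in control, -0.39 in Scr and -0.16 in *miR-92b* on the log2 scale. Whether the number marks a factor shared by these libraries was not tested. After samples were rescaled to the same median, the log2 ratio of nuclear over whole cell control had a median of 0.18 over all loci instead of 0.06. Reads from near-identical copies remain uncertain.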
